A study of Mus musculus with 18 samples.

Results

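The 9 genes described here are B lymphoid genes measured in sorted bone marrow progenitors of mice: Cd79a, Cd79b, Ms4a1, Cd22, Ebf1, Pax5, Vpreb1, Vpreb3 and Igll1. They were chosen by name as genes of the B cell lineage, 9 of the 22787 genes in the deposited table, and all 9 passed the filter on low values, which kept 13237 genes. They fall into 4 roles. The 3 early B cell genes are Vpreb1, Vpreb3 and Igll1, of which Vpreb1 and Igll1 encode parts of the surrogate light chain. The others are 2 transcription factors (Ebf1, Pax5), 2 signalling chains of the B cell receptor (Cd79a, Cd79b) and 2 surface receptors of mature B cells (Ms4a1, Cd22). RNA was sequenced by a low-input Smart-seq2 protocol from sorts of 10000 granulocyte-monocyte progenitors, the committed precursors of neutrophils and monocytes. The sort took cells that bound antibody to c-kit and to the Fc receptors FcγRII/III, were low for CD34 and Ly6C, and lacked Sca-1, CD127 (the interleukin-7 receptor) and CD135, after staining with a lineage panel whose antibodies are not named in the labels. In all, 4 groups of 3 libraries each were compared: Raptor KO with Raptor fl/fl, and Tsc2 KO with Tsc2 fl/fl. Raptor is a subunit of the kinase complex mTORC1, and Tsc2 is part of the complex that restrains mTORC1, so the designs remove an activity or a brake of the same pathway. The fl/fl mice carry floxed alleles and served as the controls of their own line; the labels do not state what drove the deletion, nor the age and sex of the mice. The genotype entry of the samples titled Tsc2 gives Raptor, and the titles were used. The 6 libraries of DR-ER-Hoxb8 cells, a conditionally immortalised progenitor line that was differentiated for 3 days with DMSO, rapamycin or SL0101-01, served only as a reference level.

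B cells develop in the bone marrow from lymphoid progenitors that switch on the transcription factors Ebf1 and Pax5. Early B cells make a surrogate light chain from the products of the Vpreb1 and Igll1 genes. It pairs with the first immunoglobulin heavy chain and is lost once a true light chain is made. Cd79a and Cd79b encode the signalling chains that every B cell receptor and its precursor need, whereas Ms4a1 (CD20) and Cd22, an inhibitory receptor, are surface proteins that increase as B cells mature. Granulocyte-monocyte progenitors are not known as a source of B cells.

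The 3 early genes are shown first by the 250 bases before their start sites, because they are the class against which the mature genes are set. The sequences were taken from RefSeq on build GRCm38.p6, and 7 of the 9 genes had an entry. Capitals mark the letters CCCNNGGG, the core of the motif that Ebf1 binds, searched on both strands. The Igll1 window (chr16:16863986-16864235, minus strand) and the Vpreb1 window (chr16:16869256-16869505, minus strand) lie on 1 chromosome with start sites 5270 bases apart, and the Vpreb3 window is chr10:75948050-75948299, plus strand. None of the 3 windows overlaps an annotated exon.
Igll1: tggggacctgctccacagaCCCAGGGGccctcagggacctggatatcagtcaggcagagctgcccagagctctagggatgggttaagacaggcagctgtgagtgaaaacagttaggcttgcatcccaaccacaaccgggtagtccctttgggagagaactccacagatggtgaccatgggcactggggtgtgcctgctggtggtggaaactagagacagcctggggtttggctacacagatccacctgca
Vpreb1: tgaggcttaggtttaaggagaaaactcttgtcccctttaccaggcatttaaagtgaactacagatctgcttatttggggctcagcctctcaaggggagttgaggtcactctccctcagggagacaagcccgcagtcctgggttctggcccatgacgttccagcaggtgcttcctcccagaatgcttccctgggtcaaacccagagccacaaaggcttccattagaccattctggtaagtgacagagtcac
Vpreb3: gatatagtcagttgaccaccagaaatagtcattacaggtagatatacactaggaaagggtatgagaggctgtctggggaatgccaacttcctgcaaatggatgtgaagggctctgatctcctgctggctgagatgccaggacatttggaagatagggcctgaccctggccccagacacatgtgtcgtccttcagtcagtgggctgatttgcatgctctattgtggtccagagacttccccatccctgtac
The Igll1 window held 1 match, which began 231 bases before the start site, and the windows of Vpreb1 and Vpreb3 held none. Among the 7 members with an entry 2 had a match, Cd22 and Igll1, against 11.8% of 32851 mouse promoter windows of the same length. The E box letters CANNTG, which E proteins bind, were found in at least 1 window of all 7 and in 66.2% of all windows. Members were counted by gene and the background by window, and Ebf1 also had a window with 0 E box matches. These are letter matches only.

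Progenitor libraries held between 2477382 and 3524325 fragments. Values are fragments scaled by the authors' size factor of each library, so that 1 fragment was worth 0.663 to 0.941. Every value of the 9 genes was a whole number of fragments, within 0.000624. The targeted Tsc2 transcript was 248 ± 18.0 (SD, n = 3) in Tsc2 fl/fl and 95.1 ± 10.8 in Tsc2 KO, a log2 fold change of -1.38 (limma, adjusted p = 0.000169). For Rptor the control mean was 84.5 ± 5.11 and the Raptor KO mean 63.3 ± 5.61, -0.41 (limma, adjusted p = 0.377). Rptor thus did not pass the threshold, although the 3 KO libraries (58.7 to 69.5) were all below the 3 controls (78.6 to 88.0). Values were counted per gene, and loss of a part of the gene was not tested. The myeloid progenitor gene Mpo was abundant in all 12 libraries, from 4820 to 52221, and Kit, the gene of the c-kit marker, lay between 757 and 1284. Fcgr3, the gene of a sorted Fc receptor, was uneven within the Tsc2 line. Replicate 2 of the controls held only 44.0, whereas replicates 1 and 3 held 311 and 279. Among Tsc2 knockouts, replicate 1 had 247, replicate 2 had 64.6 and replicate 3 had 79.3. Every Raptor-line library lay between 223 and 309. The 3 Tsc2 libraries with little Fcgr3 also held less Mpo than the rest of that line, so the sorts were not alike in these markers. Replicate 2 stood apart by Y-linked transcripts in both Tsc2 groups, and the knockout calls of the 9 genes that change without them, and fold changes that then move by over 1.5 times, are given with both values. Nothing in the labels says whether replicates are separate mice, so the p-values measure the spread between these libraries, and in RNA from bulk sorts fewer cells of a type and less RNA per cell cannot be told apart.

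In control progenitors all 9 genes were detected, and all had their highest mean in Raptor fl/fl. Per kilobase of the longest coding transcript, mean levels in Raptor fl/fl ran from Cd79b at 188 ± 18.0 and Cd79a at 151 ± 22.4 (SD, n = 3) through Igll1 at 98.3 ± 47.9 and Vpreb3 at 78.9 ± 17.0 to Ms4a1 at 32.3 ± 7.01 and Vpreb1 at 23.5 ± 9.31. Ebf1 at 9.93 ± 5.17, Cd22 at 7.24 ± 1.33 and Pax5 at 1.82 ± 0.984 were lowest. Libraries of neighbours in this order overlapped, except between Vpreb3 and Ms4a1 and between Cd22 and Pax5. In Raptor KO the order changed to Cd79b at 63.1, Igll1 at 34.4 and Cd79a at 12.7 per kilobase, with Ms4a1 at 0.204, and in Tsc2 KO Cd79b at 22.5 was followed by Vpreb3 at 2.24. The Hoxb8 line was near 0 for all 9, with a summed level of 3.36 to 7.47 per library against 737 to 1027 in Raptor fl/fl and 293 to 478 in Tsc2 fl/fl. Summed levels were 141 to 177 in Raptor KO and 21.5 to 76.2 in Tsc2 KO, below every library of their own controls.

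**Figure D1:**
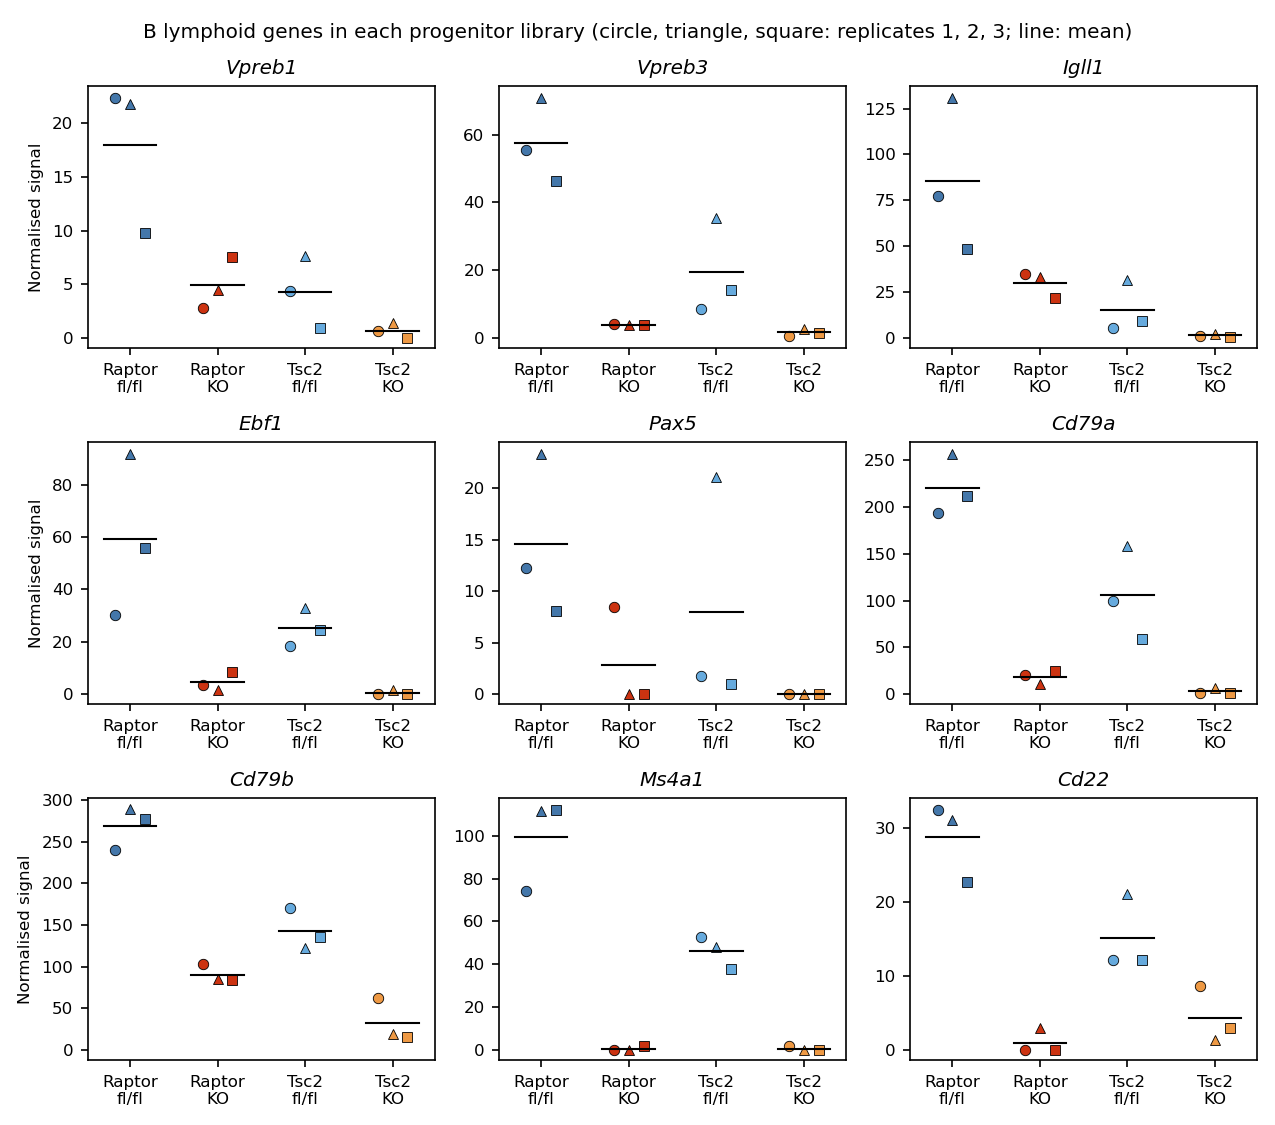
Level of each of the 9 genes in the 12 progenitor libraries, plotted as the normalised signal on a linear axis, with a point per library and a bar at the group mean. Ms4a1 sits between 37.6 and 112 in the 6 control libraries and between 0 and 1.99 in the 6 knockout libraries.

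Among the early genes, Vpreb3, a partner of the receptor chains in early B cells, fell in both knockouts. Its values were 55.6, 70.8 and 46.3 in Raptor fl/fl against 4.24, 3.72 and 3.76 in Raptor KO, a log2 fold change of -3.56 (SE 0.53; limma, adjusted p = 0.00102). In the Tsc2 line they were 8.67, 35.5 and 14.1 in fl/fl and 0.663, 2.75 and 1.48 in KO, -2.81 (SE 0.53; adjusted p = 0.00258). Neither KO group overlapped its controls, and replicate 2 of Tsc2 fl/fl was the highest of its group.

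Igll1, the constant-region-like part of the surrogate light chain, was 77.2, 130.8 and 48.7 in Raptor fl/fl against 34.7, 33.4 and 21.6 in Raptor KO. The groups did not overlap, but the log2 fold change of -1.40 (SE 0.54) missed the threshold (limma, adjusted p = 0.153), which it passed with only the Raptor groups in the fit (adjusted p = 0.00762). In Tsc2 fl/fl Igll1 was 5.20, 31.3 and 9.41 and in Tsc2 KO 1.33, 2.06 and 0.741, and it fell by 2.46 on the log2 scale (SE 0.54; adjusted p = 0.0070). The Raptor KO libraries thus kept more Igll1 than Tsc2 fl/fl replicates 1 and 3. The Tsc2 call was lost with precision weights on fragments (adjusted p = 0.0648) and with only the Tsc2 groups in the fit (adjusted p = 0.0683).

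Vpreb1, the variable-region-like partner of Igll1, was 22.4, 21.8 and 9.74 in Raptor fl/fl against 2.83, 4.46 and 7.52 in Raptor KO, -1.67 (SE 0.64; limma, adjusted p = 0.149). It was 4.34, 7.61 and 0.941 in Tsc2 fl/fl against 0.663, 1.38 and 0 in Tsc2 KO, -1.50 (adjusted p = 0.134). The Raptor groups did not overlap and the Tsc2 groups did, since Tsc2 fl/fl replicate 3 held a single fragment. The 3 Tsc2 KO libraries held 3 fragments against 15 in their controls, a level 6.34-fold lower with a 95% counting interval of 1.79 to 34.2. Vpreb2, a near-identical copy that can share reads with Vpreb1, was above 0 in 3 progenitor libraries and at most 2.89, so the assignment between the copies is uncertain at that level.

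Of the transcription factors, Ebf1, which commits progenitors to the B lineage, fell in both knockouts. Its values were 30.3, 91.9 and 56.0 in Raptor fl/fl against 3.54, 1.49 and 8.46 in Raptor KO, -3.53 (SE 0.59; limma, adjusted p = 0.00238). In the Tsc2 line they were 18.2, 32.99 and 24.5 in fl/fl and 0, 1.38 and 0 in KO, -4.26 (adjusted p = 0.000246). All KO libraries of both lines were below all 6 control libraries. The Tsc2 KO value rests on 2 fragments against 86, which is 54.6-fold lower with a 95% counting interval of 14.7 to 458.

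Pax5, which maintains B cell identity after Ebf1, was the least abundant of the 9 per kilobase in both control groups. It was 12.3, 23.4 and 8.11 in Raptor fl/fl against 8.49, 0 and 0 in Raptor KO, -2.76 (SE 0.92; limma, adjusted p = 0.0989). Raptor KO replicate 1 overlapped the controls, and without it the call was made (adjusted p = 0.0228), as it was without Tsc2 fl/fl replicate 2 (adjusted p = 0.0401) and without both libraries with Y-linked transcripts (adjusted p = 0.0428). The call was also made with only the Raptor groups in the fit (limma, adjusted p = 0.0253). In Tsc2 fl/fl Pax5 was 1.73, 21.2 and 0.941, and all 3 Tsc2 KO libraries were at 0, -2.29 (adjusted p = 0.113). Against a floor of 3 fragments over the KO group Pax5 was at least 11.8-fold lower there, but replicate 2 carries that control level and replicates 1 and 3 held 2 fragments and 1 fragment. Without both libraries with Y-linked transcripts the Tsc2 fold change of Pax5 was -1.20 (adjusted p = 0.496).

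The signalling chains were the most abundant of the 9 per kilobase in the controls, and both fell in both knockouts, with larger fold changes for Cd79a. Cd79a was 193, 257 and 212 in Raptor fl/fl against 20.5, 10.4 and 24.4 in Raptor KO, -3.58 (SE 0.53; limma, adjusted p = 0.00143). It was 99.7, 158 and 58.3 in Tsc2 fl/fl against 0.663, 6.88 and 0.741 in Tsc2 KO, -5.12 (adjusted p = 3.1e-05). Neither KO group overlapped its controls, and replicate 2 was the highest Tsc2 KO library.

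Cd79b was 239.5, 289 and 278 in Raptor fl/fl against 102.6, 84.7 and 83.6 in Raptor KO, -1.56 (SE 0.37; limma, adjusted p = 0.0299). It was 171, 122 and 135 in Tsc2 fl/fl against 62.3, 18.6 and 15.6 in Tsc2 KO, -2.38 (adjusted p = 0.00116). Neither KO group overlapped its controls, and replicate 1 stood above the other Tsc2 KO libraries for Cd79b although it held a single fragment of Cd79a. The Raptor call was lost without any one of the 6 Raptor libraries (adjusted p = 0.0561 to 0.130) and without a variance trend (adjusted p = 0.111).

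The ratio of Cd79a to Cd79b values was 0.763 to 0.889 in Raptor fl/fl and 0.431 to 1.30 in Tsc2 fl/fl. It was 0.123 to 0.292 in Raptor KO and 0.0106 to 0.370 in Tsc2 KO, below every control library of the same line. Cd79b was the highest of the 9 in each knockout, and its partner in the heterodimer was far below it. The difference between the genes was not tested.

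The mature surface receptors had the lowest levels per kilobase of the 9 in Raptor KO. Ms4a1 was 74.3, 111 and 112 in Raptor fl/fl against 0, 0 and 1.88 in Raptor KO, -6.11 (SE 0.56; limma, adjusted p = 8.4e-06). The 3 KO libraries held 2 fragments against 384, which is 188-fold lower with a 95% counting interval of 51.7 to 1559. In the Tsc2 line Ms4a1 was 52.9, 48.2 and 37.6 in fl/fl and 1.99, 0 and 0 in KO, -5.02 (adjusted p = 3.1e-05), or 66.8-fold lower on 3 fragments against 158 (22.5 to 328). No KO library of either line came near a control library.

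Cd22 was 32.5, 31.1 and 22.7 in Raptor fl/fl against 0, 2.97 and 0 in Raptor KO, -4.22 (SE 0.63; limma, adjusted p = 0.00111). In the Tsc2 line it was 12.1, 21.2 and 12.2 in fl/fl and 8.62, 1.38 and 2.96 in KO, -1.80 (adjusted p = 0.0689). Neither KO group overlapped its controls, but Tsc2 KO replicate 1 was close to them. Without that library the Tsc2 comparison passed (adjusted p = 0.0156), and it also passed without Raptor KO replicate 2, which enters only through the shared spread (adjusted p = 0.0477). With 5 added to each value in place of 1, the Tsc2 comparison passed too (limma, adjusted p = 0.038). Without both libraries with Y-linked transcripts the Tsc2 fold change of Cd22 was -1.09 (adjusted p = 0.420).

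Counted together, 6 of the 9 genes fell in Raptor KO (Vpreb3, Ebf1, Cd79a, Cd79b, Ms4a1, Cd22), where 2.42% of all genes tested were called lower. Likewise 6 of the 9 fell in Tsc2 KO (Vpreb3, Igll1, Ebf1, Cd79a, Cd79b, Ms4a1), where 7.12% of all genes were called lower. None was called higher, against 1.53% of all genes in Raptor KO and 5.26% in Tsc2 KO. The median log2 fold change of the 9 was -3.53 in Raptor KO and -2.46 in Tsc2 KO, or -2.81 with Pax5 at its bound, against 0.03 and -0.02 over all genes tested. KO and control libraries did not overlap for 8 of the 9 genes in the Raptor line (all but Pax5) and for 8 of the 9 in the Tsc2 line (all but Vpreb1), against 13.1% and 13.3% of all genes lower without overlap. The Tsc2 count includes Pax5, whose control replicates 1 and 3 held only 2 fragments and 1 fragment, against 0 in each KO library. Vpreb3, Ebf1, Cd79a and Ms4a1 were called in both knockouts under each of the 22 alternative settings. Without the libraries that held Y-linked transcripts, 7 of the 9 were called lower in Raptor KO and 6 in Tsc2 KO, with a Tsc2 median of -2.24.

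The knockout effects on single genes were then compared by the interaction term, the Raptor change minus the Tsc2 change. None of the 9 differed at the threshold (limma; 1 at an unadjusted p under 0.05, and 0 called with voom weights), where 12.4% of all genes were called in either direction. The widest gaps were Cd22 at -2.41 (SE 0.90; adjusted p = 0.0857) and Cd79a at 1.54 (SE 0.75; adjusted p = 0.196). Cd22 passed without Raptor KO replicate 2 (adjusted p = 0.0357), and Cd79a passed without Tsc2 KO replicate 2 (adjusted p = 0.0213). Both passed without the libraries with Y-linked transcripts (adjusted p = 0.0458 and 0.0359). Cd79b passed without Tsc2 KO replicate 1 (adjusted p = 0.00192). With standard errors of this size the term does not show that the knockouts act alike on these genes.

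**Figure D2:**
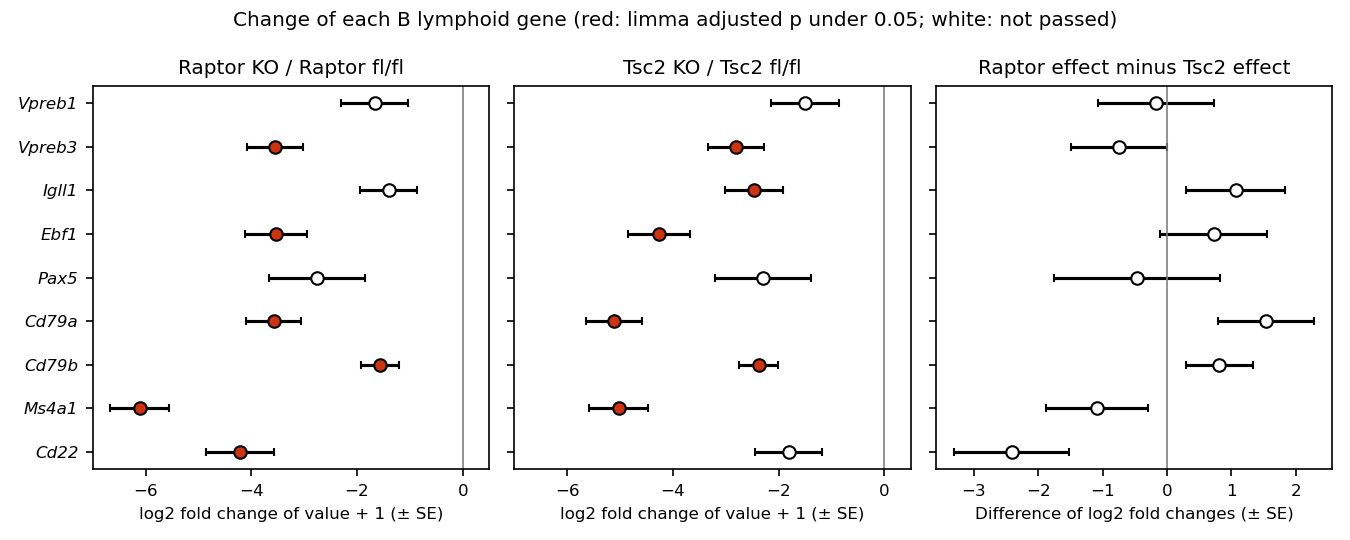
Log2 fold change of the 9 genes with its standard error in each knockout comparison and their difference; red points passed an adjusted p of 0.05 and white points did not. In both knockouts all points lie below 0, from -1.40 for Igll1 to -6.11 for Ms4a1 in Raptor KO and from -1.50 for Vpreb1 to -5.12 for Cd79a in Tsc2 KO.

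Early and mature genes were set against each other within each library. The early sum, Vpreb1 plus Vpreb3 plus Igll1, was 155, 223 and 105 in Raptor fl/fl against 41.7, 41.6 and 32.9 in Raptor KO. The mature sum, Ms4a1 plus Cd22, was 107, 142 and 135 in Raptor fl/fl against 0, 2.97 and 1.88 in Raptor KO. The early sum in Raptor KO was thus 24.1% of its control mean and the mature sum 1.26%, or 0.734% without Raptor KO replicate 2 and 1.90% without replicate 1. Most of the early remainder was Igll1, with 117 of the 150 early fragments in Raptor KO, whereas Vpreb3 was 14.7-fold lower than in its controls. Cd79b, in neither class, had a larger mean in Raptor KO (90.3) than the early sum (38.7).

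As a share of early plus mature fragments, early fragments made up 59.2%, 61.1% and 43.7% in Raptor fl/fl. In Raptor KO they made up 100% (59 of 59 fragments, exact 95% interval 93.9 to 100), 93.3% and 94.6%, with no overlap. Over the group, 150 of 156 fragments in Raptor KO were early (96.2%, Clopper-Pearson 95% interval 91.8 to 98.6), against 55.9% (53.0 to 58.9) in its controls. The intervals cover counting error only, and a share over chosen genes was given no test.

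In the Tsc2 line the early sum was 18.2, 74.4 and 24.5 in fl/fl and 2.65, 6.19 and 2.22 in KO, and the mature sum was 65.0, 69.4 and 49.8 in fl/fl and 10.6, 1.38 and 2.96 in KO. Early and mature sums in Tsc2 KO were 9.45% and 8.11% of their control means, values that rest on single libraries. The early percentage was 6.24 without Tsc2 KO replicate 2 and 17.3 without Tsc2 fl/fl replicate 2, and the mature percentage was 3.53 without Tsc2 KO replicate 1. Most of the mature remainder was Cd22, with 19 of the 22 mature fragments in Tsc2 KO, whereas Ms4a1 was 66.8-fold lower than in its controls. Hoxb8 libraries had early sums of 0 to 2.62 and mature sums of 0.758 to 4.58, which overlapped those of Tsc2 KO. The early share was 21.9%, 51.8% and 32.9% in fl/fl and 20%, 81.8% and 42.9% in KO, so the groups overlapped. The KO shares rest on 4 of 20, 9 of 11 and 3 of 7 fragments, and the pooled share of 42.1% has an interval of 26.3 to 59.2, which takes in the 39.1% of the controls. That interval leaves out the spread between libraries, and replicate 2 alone has an interval of 48.2 to 97.7; whether the shift in share differs between the lines was not tested. Without replicate 2, the library with Y-linked transcripts in each Tsc2 group, the mean shares were 27.4% in fl/fl and 31.4% in KO.

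**Figure D3:**
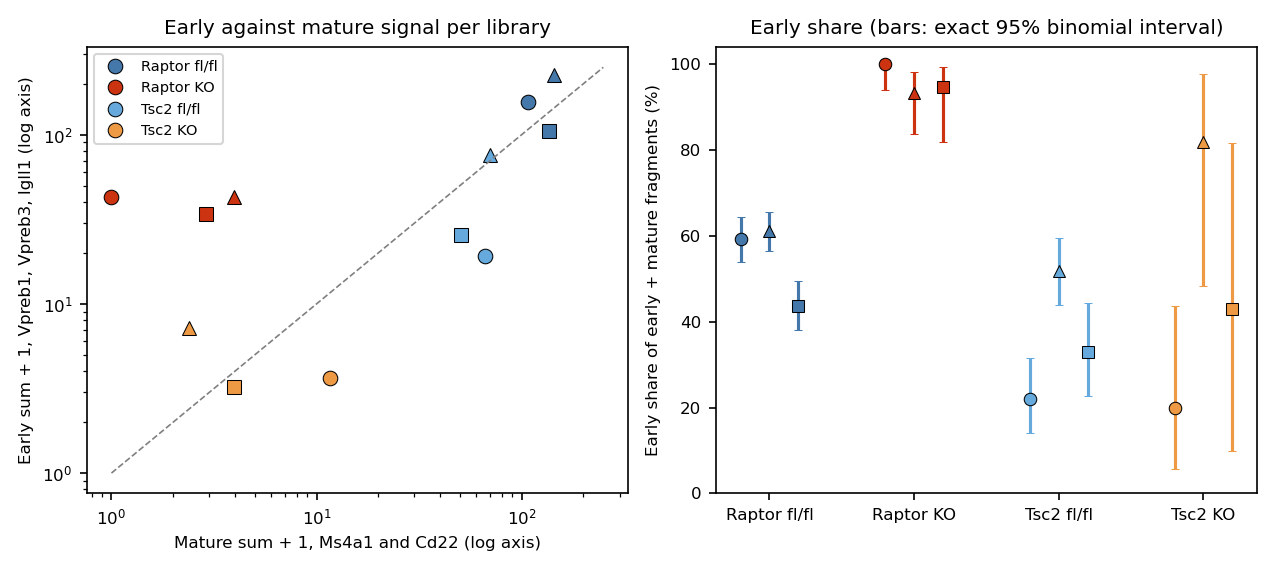
Left, early sum (Vpreb1, Vpreb3, Igll1) against mature sum (Ms4a1, Cd22) per progenitor library, both plus 1 on log axes with a dashed line of equality; right, early share of early plus mature fragments (percent) with its exact 95% binomial interval; circles, triangles and squares are replicates 1, 2 and 3. The Raptor KO libraries lie at an early sum of 32.9 to 41.7 with a mature sum of 0 to 2.97, whereas the Tsc2 KO libraries are low on both axes.

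Both control groups were compared with each other, since they give the level from which each knockout departs. Means of all 9 genes were lower in Tsc2 fl/fl than in Raptor fl/fl, with a median log2 difference of -1.16 against -0.05 over all genes. Only Igll1 passed, at -2.65 (SE 0.54; limma, adjusted p = 0.0320), where 0.121% of all genes were called lower. Libraries did not overlap for 7 of the 9 (all but Ebf1 and Pax5), against 9.25% of all genes. The Igll1 call was lost in 8 of 22 alternatives (adjusted p = 0.0517 to 0.175), among them leaving out Raptor fl/fl replicate 1 or 2, Raptor KO replicate 2 or 3, or Tsc2 fl/fl replicate 1 or 3. Cd79b passed without Tsc2 KO replicate 1 (adjusted p = 0.0130). Mouse line and any batch between the lines cannot be told apart.

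Beyond the 9, 44 other B lineage genes were matched in the table and 43 were tested. In Raptor KO 17 of them fell, where 2.42% of all genes tested were called lower, and in Tsc2 KO 30 fell, where 7.12% were. Of these genes 15 fell in both and none rose, where 1.53% and 5.26% of all genes were called higher. The median log2 fold change of the 43 was -1.43 in Raptor KO and -2.09 in Tsc2 KO.

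The genes that passed in both knockouts included Ccr7, the chemokine receptor that guides lymphocytes to lymph nodes (-4.49 and -5.11 for Raptor and Tsc2), and Fcmr, the Fc receptor for IgM, listed as Faim3 (-3.91 and -4.24). The B cell transcription factor Spib (-3.93 and -3.84), the adaptor Bank1 (-4.37 and -3.42) and the kinase Blk (-3.62 and -2.64) fell in both as well. Of the 15 genes listed as mature, 7 fell in Raptor KO and 12 in Tsc2 KO, against 2.42% and 7.12% of all genes tested. Of the 15 of all stages 7 and 14 fell, and of the 15 listed as early 5 and 6. The early list is shared with other progenitors: Cd24a fell in Raptor KO (-2.17, adjusted p = 0.000986), and Erg (-1.61) and Sox4 (-1.59) fell in Tsc2 KO. In this set the interaction term called 8 of 43 genes, where it called 12.4% of all genes; 7 had a more negative change in Tsc2 KO (Erg, Cplx2, Sox4, Cd37, Pou2f2, Mzb1, Tnfrsf13b) and Cd24a had a more negative change in Raptor KO. Rag1, which cuts immunoglobulin genes in early B cells, was 12.3, 15.6 and 8.93 in Raptor fl/fl against 3.54, 0 and 0 in Raptor KO (-2.97, adjusted p = 0.0207). The immunoglobulin genes listed, light chains as well as Ighm and Ighd, had no row under these names in the table and were not analysed here.

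**Figure D4:**
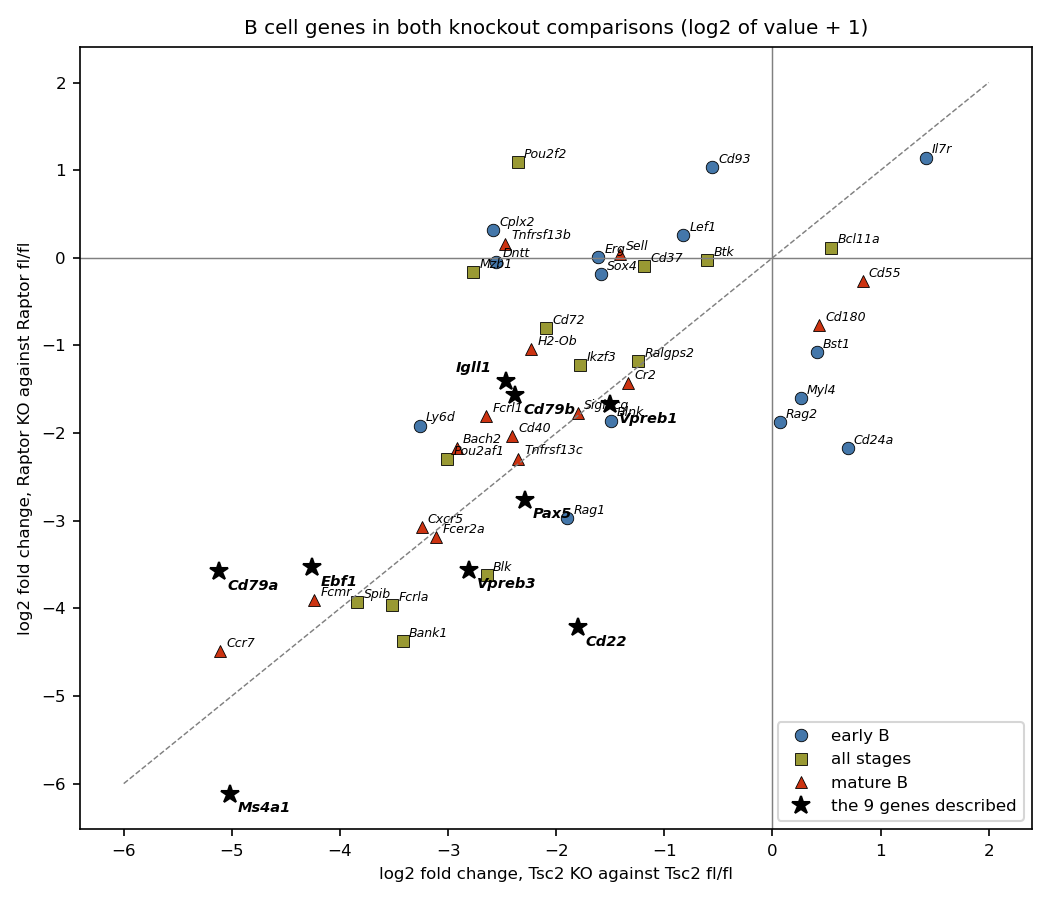
Log2 fold change in Raptor KO (vertical axis) against Tsc2 KO (horizontal axis) for the 9 genes (stars) and other B lineage genes tested, coloured by list; the dashed line marks equal change. Ms4a1, Cd79a, Ebf1 and Ccr7 lie at -3.5 or lower on both axes, and Cd24a lies below 0 for Raptor and above 0 for Tsc2.

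Markers of other cells that a sort can hold were read beside the B lymphoid genes. For scale, 2.42% of all genes tested were called lower in Raptor KO and 7.12% in Tsc2 KO. Called higher were 1.53% in Raptor KO and 5.26% in Tsc2 KO. Of 8 T cell genes tested none fell, with a median log2 fold change of 0.13 in Raptor KO and -1.01 in Tsc2 KO. Cd4 rose in Tsc2 KO (3.66, limma, adjusted p = 0.00738). Cd3e, a defining T cell gene that did not pass the filter, was at 0 in 10 of 12 libraries and at most 2.97. Lck lay between 3.72 and 52.5 and Cd3g between 0 and 11.8, both highest in Tsc2 fl/fl replicate 2. Of 6 erythroid genes 4 fell in Raptor KO and none in Tsc2 KO, with a summed level of 300.4 to 414 in Raptor fl/fl against 29.0 to 34.7 in Raptor KO, and 155 to 456 in Tsc2 fl/fl against 299 to 877 in Tsc2 KO. Of 7 natural killer cell genes 1 fell in Raptor KO and 3 in Tsc2 KO, with sums of 1388 to 1452 and 1079 to 1210 in the Raptor line and of 835 to 1289 and 219 to 796 in the Tsc2 line. Nkg7 carries most of these sums in the controls, with a mean of 1334 in Raptor fl/fl, and the median log2 fold change of the list was -1.72 in Raptor KO and -1.78 in Tsc2 KO. Gzma, a granzyme of killer cells, was 3.61, 20.2 and 5.68 in Raptor fl/fl and at 0 in all 3 Raptor KO libraries (adjusted p = 0.0213). Of 6 plasmacytoid dendritic cell genes none passed in either knockout, and of 5 plasma cell genes only Xbp1 rose, in Raptor KO (0.65, adjusted p = 0.0183). Of 13 progenitor genes 2 rose in Raptor KO and 5 fell in Tsc2 KO, where their sum was 8949 to 41559 against 37794 to 84295 in the controls. Il7r, the gene of CD127, against which the sort selected, was 0 to 29.1 and did not differ at the threshold in either knockout. Erythroid genes thus moved with the B lymphoid genes in the Raptor line and not in the Tsc2 line, and natural killer cell genes had negative medians in both lines. Pf4, platelet factor 4, a gene known from megakaryocytes and in no list, fell in both: it was 532 to 655 in Raptor fl/fl and 65.4 to 134 in Raptor KO (-2.65, adjusted p = 0.000373), and 124 to 310.5 in Tsc2 fl/fl and 39.2 to 61.0 in Tsc2 KO (-1.99, adjusted p = 0.00111). The part of these cells, and of the progenitor genes, in the B lymphoid result was not tested.

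The 9 genes varied together over the 12 progenitor libraries, as a description of libraries that share groups. Vpreb3 was closest to the mean of the other 8 (Pearson r = 0.971), followed by Ebf1 (0.951) and Cd79a (0.949), and Igll1 (0.762) and Cd22 (0.686) were least close. Among 9935 genes with a mean value of 10 or more, those most like the mean of the 9 included Fcmr (r = 0.977), Pf4 (0.960), Irf4 (0.957), Fcrla (0.9501), Cd38 (0.945), Ly6d (0.944), Cxcr5 (0.942), Bank1 (0.942) and 8430427H17Rik (0.939).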

How the data were processed

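The 12 progenitor libraries, 3 in each of 4 groups, were analysed from a table of 18 libraries and 22787 genes. Per the submitters' processing notes, BWA, TopHat2 2.0.10, Cufflinks 2.2.1 and Cuffnorm were used, with no genome build named in those notes. The deposited values are a normalised signal, each gene's fragments after division by a library size factor, and 98.8 to 99.0% of values above 0 were whole multiples of 1 fragment within a tolerance of 0.01. Genes with a value of 1 or more in at least 3 progenitor libraries (13237) were fitted with limma 3.58.1 in R 4.3.3 on log2(value + 1), 4 groups in 1 fit with a robust variance trend. A fold change on this scale understates the change of low genes. The adjusted p is Benjamini-Hochberg over all genes tested, with a threshold of 0.05; the script was tested on simulated data. Fragments recovered from the steps gave counting intervals (95%, exact) and a floor of 3 fragments. Levels per kilobase used GENCODE M21 transcript lengths. The members and lists were chosen with earlier results of these data known; named genes are the 9, the targeted genes, up to 12 other B lineage genes by adjusted p, and 10 by likeness, others being named after their values were seen. A gene that these rules select is not reported here by name; it stays in the counts of its lists.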

Additional observations from a re-analysis of the deposited data

Results flagged for a closer look

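In the Hoxb8 line, which enters no comparison here, Cd22 was 4.58 in replicate 1 of the rapamycin libraries, on 5 fragments, above the DMSO libraries at 3.16 and 0.830. It was singled out because it exceeds the level of the control samples outside the main measurement; the difference is a few fragments and was not tested.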

How the results depend on the processing

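All 9 genes were lower in both knockouts under each alternative in which they were tested; Pax5 did not pass the filter with only the Tsc2 groups. Genes called numbered 522 (Raptor), 1638 (Tsc2), 1646 (interaction) and 80 (controls). Without a variance trend they were 188, 827, 599 and 4; with only the groups compared 1249 (Raptor), 471 (Tsc2) and 166 (controls). Leaving out each library in turn gave 146 to 834, 601 to 2498, 897 to 2519 and 7 to 276. Raptor calls were 146 to 253 without any Raptor library but KO replicate 1; Tsc2 calls were 601 to 860 without fl/fl replicate 1 or 3 or KO replicate 2 or 3, and 2498 without KO replicate 1. The interaction gave 897 to 1085 without replicate 1 of either control group or replicate 2 or 3 of either knockout, and 2519 without Tsc2 KO replicate 1, and the controls gave 7 to 41 without any control library or Raptor KO replicate 3 and 276 without Tsc2 KO replicate 1. Leaving out both Y-positive libraries, chosen after seeing the data, gave 37 for the controls. Of the 9 genes, the interaction called 1 with quantile normalisation and 2 without the Y-positive libraries, and 0 to 1 with a library left out. The controls gave 0 without a filter, 0 without a variance trend, 2 with only these groups, and 0 to 2 with a library left out. The interaction turned sign for Vpreb1 (0.13 with pseudocount 0.5, 0.30 with voom weights, -0.64 to 0.43 with a library left out), Ebf1 (-0.26 with pseudocount 5) and Pax5 (0.076 with voom weights, -1.56 to 0.20 with a library left out). With Vpreb1 and Igll1 alone as the early class, the early share in Raptor fl/fl was 43.4% and the early sum in Raptor KO 33.7% of its controls. Whether replicate numbers pair the samples stayed unsettled. Same-number correlations were 0.03, 0.05 and 0.01 in the Raptor line and 0.22, 0.25 and -0.03 in the Tsc2 line, own number best for 2 of 3 in each. Between the control groups they were 0.03, 0.05 and 0.006, with the own number best for each replicate. A replicate block called 706, 1882, 1855 and 169 genes, and 6, 6, 0 and 1 of the 9. The planned count tests with edgeR and DESeq2 were not run, since a small share of values could not be turned into whole fragments. The cause of these changes was not tested. Depth limits Tsc2 KO, where Vpreb1, Ebf1 and Ms4a1 rest on 2 or 3 fragments. It also limits Raptor KO, where Ms4a1 rests on 2 fragments and Cd22 on 4.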

Other observations

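In the Raptor line, some genes of antibody-secreting and early lymphoid cells did not pass the test; they were chosen after their values were seen. Jchain, the joining chain of secreted antibody (listed as Igj), was 686, 1442 and 1435 in Raptor fl/fl and 1684, 844 and 1370 in Raptor KO. In the Tsc2 line Jchain was 0, 831 and 23.5 in fl/fl and 42.4, 17.2 and 0 in KO, so that replicate 2 of the controls stood alone, and it passed in neither knockout (limma, adjusted p = 0.985 and 0.730). Dntt, the polymerase that adds bases at joined immunoglobulin genes, was 84.4, 105 and 63.3 in Raptor fl/fl and 100.5, 90.7 and 56.4 in Raptor KO, a log2 fold change of -0.04 (adjusted p = 0.992). In Tsc2 fl/fl Dntt was 3.47, 65.1 and 10.3 and in Tsc2 KO 0.663, 8.94 and 0, -2.55 (adjusted p = 0.118). Mzb1, a chaperone of antibody assembly, was 25.3, 45.9 and 39.8 in Raptor fl/fl against 37.5, 23.8 and 36.6 in Raptor KO, and fell in Tsc2 KO (-2.77, adjusted p = 0.00311). Raptor KO libraries overlapped their controls for these transcripts, while Ms4a1 was at 0 to 1.88 there. Whether such transcripts come from the same cells as the 9 genes was not tested.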
